A study of Mus musculus with 8 samples.

Results

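The genes described here are 10 core genes of the Notch pathway: the receptors Notch1, Notch2, Notch3 and Notch4, the ligands Dll1, Dll4, Jag1 and Jag2, and the target genes Hes1 and Hey1. They were taken from the deposited count table by gene symbol. All 10 were found among its 54854 genes, and all 10 passed the filter on low counts that left 17723 genes to test. Transcripts were counted in the pituitary gland of 8 mice of the strain C57BL/6N, all 5 weeks old. In 4 mice, treated with the antibody AFS98 against CD115, the receptor encoded by Csf1r, macrophages that depend on this receptor were to be depleted; the other 4 received the rat IgG2a isotype control antibody 2A3. Per the labels, 3 mg was given to the pregnant dam on embryonic day 6.5, and the offspring received 100 µg on postnatal day 2, 150 µg on postnatal day 14 and, when 4 weeks old, 200 µg. Replicate 1 of each group was a female and replicates 2 to 4 were males. The labels give neither the number of dams or litters nor any sequencing batch, so litter and treatment cannot be told apart, and p-values measure the spread between these 8 mice.

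Notch receptors are membrane proteins that are switched on by ligands of the Delta-like and Jagged families on a neighbouring cell. Ligand binding exposes the receptor to an ADAM protease and then to the gamma-secretase complex, and the freed intracellular domain joins the DNA-binding protein RBPJ and a Mastermind coactivator to switch on repressor genes of the HES and HEY families. In the mouse pituitary the pathway is known for maintaining progenitor cells, and in blood vessels Dll4, Notch1 and Notch4 act in endothelial cells and Notch3 in the mural cells around them. In RNA from a whole gland, fewer cells of a type and less RNA per cell cannot be told apart.

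Libraries held between 23289819 and 36218096 counts. Anterior pituitary hormone transcripts summed to between 206400 and 297400 CPM (counts per 1e+06 counts, scaled by the TMM method) in anti-CD115 libraries and between 234600 and 293600 CPM in controls, as the tissue label implies. All 14 macrophage markers fell, and their sum was 18.3 to 65.2 CPM in anti-CD115 libraries, against 263 to 368 CPM in controls. In all, anti-CD115 changed 154 of 17723 genes (0.869%), 147 of them lower and 7 higher, at a Benjamini-Hochberg adjusted p below 0.05 in edgeR. DESeq2 called 216 lower and 52 higher, and edgeR with no low-count filter 353 lower and 134 higher. The fall was not limited to macrophage markers. Of 5 tested T and NK cell markers 1 fell, Gzma (edgeR adjusted p = 0.0417). Of 3 tested B cell markers 1 fell, Ighm (edgeR adjusted p = 0.00522).

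Per unit of gene length, Hey1 and Notch2 were the most abundant members and the ligands Dll4, Jag1 and Dll1 the least. Levels are FPKM (fragments per length of gene and per library size) as the authors deposited them, and they depend on the gene length listed for each gene. Over the 8 libraries Hey1, a repressor of the HES and HEY family, averaged 7.48 ± 0.205 FPKM and Notch2 averaged 7.06 ± 0.943 FPKM (SD, n = 8 each). Hey1 was the higher of this pair in 4 of 8 libraries, so their order was within the spread. Hes1, the founding target gene, averaged 6.02 ± 0.520 FPKM (SD, n = 8). Notch3 followed with 5.00 ± 1.18 FPKM (SD, n = 8), and Hes1 exceeded it in 6 of 8 libraries. Jag2 was the most abundant ligand at 4.39 ± 0.650 FPKM (SD, n = 8), below Notch3 in 7 of 8 libraries and above Notch1 in all 8. Notch1 averaged 2.14 ± 0.420 FPKM and Notch4 1.95 ± 0.144 FPKM (SD, n = 8 each). Notch1 exceeded Notch4 in 5 of 8 libraries, an order that the spread between libraries covers. The lowest levels were those of Dll4, Jag1 and Dll1, at 1.59 ± 0.306, 1.27 ± 0.257 and 1.18 ± 0.217 FPKM (SD, n = 8 each). Dll4 exceeded Jag1 in 7 of 8 libraries and Jag1 exceeded Dll1 in 6 of 8.

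**Figure D1:**
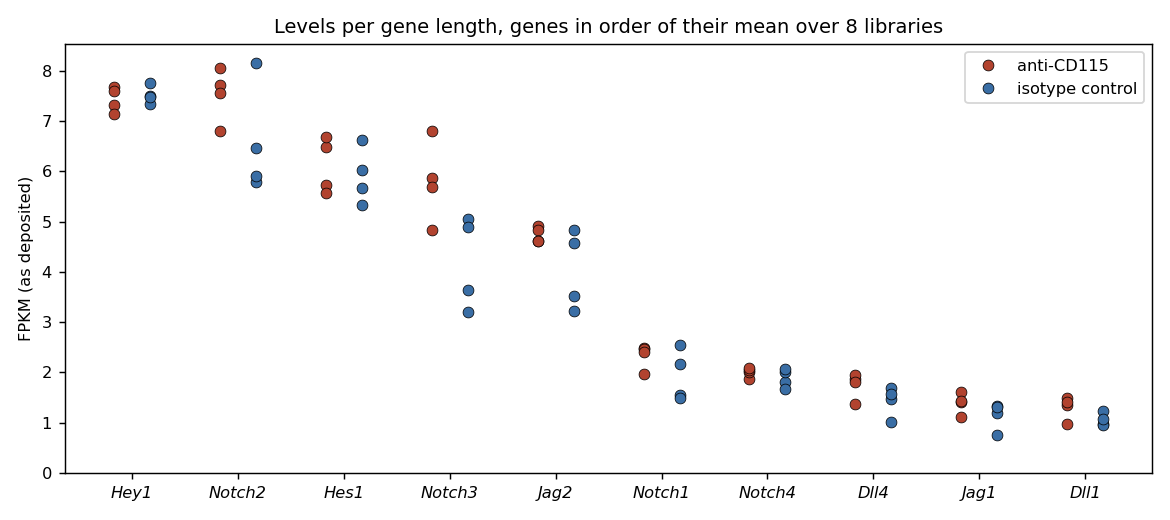
Deposited FPKM (y axis, linear) of each Notch pathway gene (x axis, ordered by the mean over 8 libraries), with 1 point per library, anti-CD115 left and isotype control right. Hey1 spans only 7.14 to 7.76 FPKM, while Notch3 spans 3.19 to 6.81 FPKM.

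Among the receptors, Notch2 and then Notch3 made up most of the pool in both groups. Notch2 supplied 42.7% ± 1.77 of the summed receptor FPKM in anti-CD115 libraries and 45.2% ± 2.75 in controls (SD, n = 4 each). Notch3 supplied 32.8% ± 2.41 in anti-CD115 libraries and 28.6% ± 2.82 in controls (SD, n = 4 each). Among the ligands, Jag2 held 51.7% ± 1.99 of the summed ligand FPKM in anti-CD115 libraries and 52.4% ± 3.32 in controls (SD, n = 4 each). Differences in these shares were not tested.

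The comparison asked whether Notch pathway transcripts differed after macrophage depletion. None of the 10 genes passed the adjusted threshold in edgeR, against 0.869% of all genes tested, and DESeq2 and limma-voom also called 0. At an unadjusted p below 0.05 there was 1, Notch3, against 10.3% of all genes. That count was 4 without control replicate 2 (Notch1, Notch2, Notch3 and Jag2), 3 with no low-count filter and 1 or 2 with any other library left out. The groups overlapped for all 10 genes, while 5.78% of all genes tested had groups that did not overlap. The estimate was above 0 for 9 of 10 genes, all receptors and ligands and Hes1, against 50.9% of all genes. Their median log2 change was 0.25, against 0.00406 over all genes. These genes share libraries, so their estimates do not count as independent.

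The promoters of 2 receptors and 2 ligands are given here. Notch2 was taken as the most abundant receptor, Notch3 as the gene with the largest estimate, and Dll4 and Jag1 as vascular ligands. Both ligands were lowest in control replicate 4, which was the lowest library for 6 of the 8 receptors and ligands. The windows run from 250 bases before to 50 bases after a RefSeq start (GRCm38.p6), each written 5′ to 3′ on the gene's strand, and capitals mark the HES and HEY class C site CACGCG or its reverse complement CGCGTG.
Notch2, chr3:98013288-98013587, plus strand: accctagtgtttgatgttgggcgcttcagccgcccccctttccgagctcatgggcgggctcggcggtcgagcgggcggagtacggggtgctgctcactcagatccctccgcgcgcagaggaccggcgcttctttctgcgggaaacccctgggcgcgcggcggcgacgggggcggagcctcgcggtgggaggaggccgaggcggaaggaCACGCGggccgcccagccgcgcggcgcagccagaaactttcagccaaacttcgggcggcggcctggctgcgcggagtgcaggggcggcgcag
Notch3, chr17:32166841-32167140, minus strand: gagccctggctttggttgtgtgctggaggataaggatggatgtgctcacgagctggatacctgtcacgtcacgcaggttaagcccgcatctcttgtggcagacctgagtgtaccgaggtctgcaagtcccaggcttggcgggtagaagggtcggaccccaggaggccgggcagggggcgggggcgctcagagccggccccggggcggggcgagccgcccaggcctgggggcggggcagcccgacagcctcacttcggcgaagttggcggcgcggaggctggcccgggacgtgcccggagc
Dll4, chr2:119325534-119325833, plus strand: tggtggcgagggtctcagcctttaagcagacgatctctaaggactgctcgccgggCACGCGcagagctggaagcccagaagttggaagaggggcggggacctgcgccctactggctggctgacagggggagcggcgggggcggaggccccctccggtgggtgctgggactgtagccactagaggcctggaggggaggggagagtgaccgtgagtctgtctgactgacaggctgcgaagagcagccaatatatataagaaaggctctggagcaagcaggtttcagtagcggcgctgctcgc
Jag1, chr2:137116471-137116770, minus strand: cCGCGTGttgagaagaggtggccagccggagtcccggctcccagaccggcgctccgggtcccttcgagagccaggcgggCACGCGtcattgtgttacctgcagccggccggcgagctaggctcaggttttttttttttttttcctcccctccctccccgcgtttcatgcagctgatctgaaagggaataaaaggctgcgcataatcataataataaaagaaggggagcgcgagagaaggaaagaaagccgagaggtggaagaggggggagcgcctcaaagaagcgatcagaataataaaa

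RefSeq windows were found for 8 of the 10 members, with a pair of windows for Dll1, so 9 windows were read. The RBPJ core TGGGAA, searched like the other motifs on both strands, was in 0 of 9 windows, against 25.6% of 32851 windows of the same length. Of the 11378 windows that hold at least 15 CpG dinucleotides, 19.3% held the RBPJ core. The E-box CACGTG, which reads the same on both strands, was likewise in 0 of 9, against 7.15% of all windows. CACGCG was in 5 of 9, those of Notch2, Dll4, Jag1, Jag2 and the upstream window of Dll1, against 9.27% of all windows. It was in 23.1% of the 11378 windows that hold at least 15 CpG dinucleotides; the members' windows hold between 5 and 63, and all 5 with the site hold 15 or more. The site began 42 bases before the start in Notch2 and 195 bases before it in Dll4, and in Jag1 it began 249 and 171 bases before. The RefSeq start lies 12841 bases inside the 5′ end that the count table lists for Notch1, and within 124 bases of the listed end for Notch2, Notch3, Dll4 and Jag1. It lies 281 bases inside for Jag2 and 1049 bases inside for the other window of Dll1, which lacks the site. The end of the window was found near the start of 0 of 3 Notch3 transcripts in the GENCODE annotation. For the upstream Dll1 window it was found in 0 of 6 transcripts, and for each other window in at least 1. A motif match is a description of letters and not a measured binding site.

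Notch3, the receptor of vascular smooth muscle and pericytes (ENSMUSG00000038146, chromosome 17, 32120820 to 32166880, GRCm38), had the largest estimate. Its level was 47.5, 55.0, 39.2 and 46.0 CPM in anti-CD115 replicates 1 to 4, against 40.9, 39.5, 29.8 and 25.8 CPM in control replicates 1 to 4. The lowest anti-CD115 library lay below the 2 highest controls, so the groups overlapped. The fitted change was 1.39-fold (95% interval 1.11 to 1.74), a log2 change of 0.47 with SE 0.15, and it did not pass over all genes (edgeR adjusted p = 0.290). With no low-count filter, which put 32025 genes in the test, Notch3 did pass (log2 0.48, edgeR adjusted p = 0.00887), and with the filter all 3 count-based tools left it above the threshold, the lowest adjusted p being 0.10 in DESeq2.

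Notch2, the receptor with the highest level per length (ENSMUSG00000027878, chromosome 3, 98013527 to 98150361), stood at 83.6, 81.9, 73.8 and 87.2 CPM in anti-CD115 replicates 1 to 4. In control replicates 1 to 4 it stood at 70.2, 88.5, 63.5 and 64.1 CPM. The highest library of all was a control, replicate 2, and the fitted change was 1.14-fold (95% interval 0.960 to 1.35; edgeR adjusted p = 0.606). Notch1, which acts in endothelium and in many progenitors (ENSMUSG00000026923, chromosome 2, 26457903 to 26516663), had 35.7, 35.2, 28.3 and 34.4 CPM in anti-CD115 replicates 1 to 4, against 31.0, 36.4, 22.6 and 21.5 CPM in control replicates 1 to 4. Control replicates 3 and 4 were the 2 lowest libraries and control replicate 2 was the highest. The fitted change of Notch1 was 1.20-fold (95% interval 0.942 to 1.53; edgeR adjusted p = 0.612). Notch4, largely an endothelial receptor (ENSMUSG00000015468, chromosome 17, 34564268 to 34588503), had 15.2, 16.2, 16.5 and 16.8 CPM in anti-CD115 replicates 1 to 4, and 14.7, 16.3, 16.9 and 13.6 CPM in control replicates 1 to 4. It was the steadiest receptor, with the groups nearly coinciding and a fitted change of 1.05-fold (95% interval 0.901 to 1.23; edgeR adjusted p = 0.843).

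**Figure D2:**
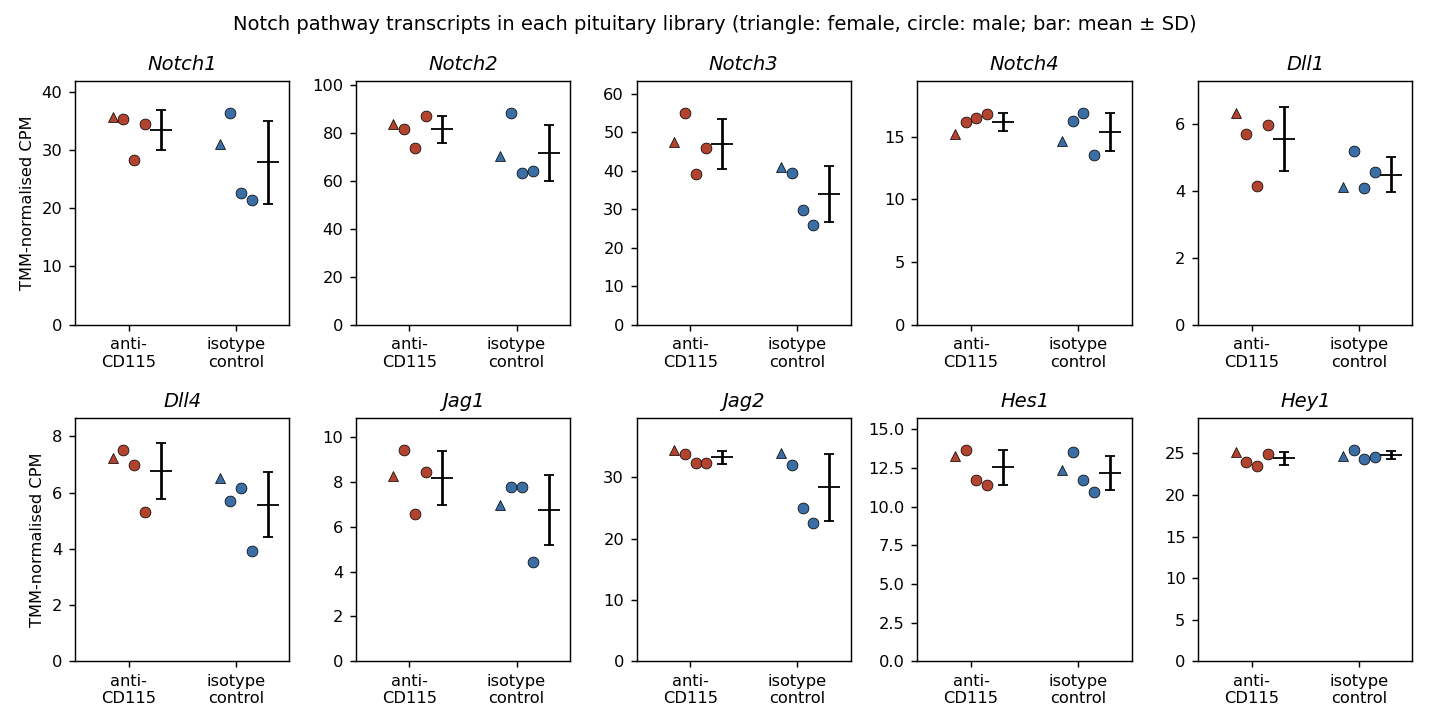
TMM-normalised CPM (y axes, linear from 0) of each gene in the 4 anti-CD115 libraries (left) and the 4 isotype control libraries (right); triangles are females, circles males, and bars give the mean and SD of 4. The groups overlap in every panel, and Notch3 shows the widest separation, with a fitted change of 1.39-fold.

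The 4 ligands had estimates close to one another, with log2 changes of 0.24 to 0.30, and none passed. Jag2, a Jagged ligand (ENSMUSG00000002799, chromosome 12, 112907819 to 112929776), had 34.5, 33.8, 32.4 and 32.3 CPM in anti-CD115 replicates 1 to 4. Its control values were 33.9, 32.0, 24.9 and 22.5 CPM in replicates 1 to 4. The anti-CD115 libraries lay between 32.3 and 34.5 CPM, and the spread among the controls came from replicates 3 and 4; the fitted change was 1.18-fold (95% interval 0.991 to 1.41; edgeR adjusted p = 0.514). Jag1, the other Jagged ligand (ENSMUSG00000027276, chromosome 2, 137081456 to 137116644), had 8.24, 9.43, 6.55 and 8.41 CPM in anti-CD115 replicates 1 to 4, against 6.97, 7.77, 7.76 and 4.44 CPM in control replicates 1 to 4. Control replicate 4 stood lowest, and the fitted change was 1.21-fold (95% interval 0.896 to 1.63; edgeR adjusted p = 0.674).

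Dll4, the Delta-like ligand of arterial endothelium and sprouting tip cells (ENSMUSG00000027314, chromosome 2, 119325784 to 119335962), had 7.23, 7.54, 6.99 and 5.30 CPM in anti-CD115 replicates 1 to 4. Its controls had 6.51, 5.70, 6.16 and 3.91 CPM in replicates 1 to 4. Here too control replicate 4 was lowest, while anti-CD115 replicate 4 lay below 3 of the 4 controls; the fitted change was 1.22-fold (95% interval 0.925 to 1.60; edgeR adjusted p = 0.631). Dll1, a Delta-like ligand of progenitor tissues (ENSMUSG00000014773, chromosome 17, 15367354 to 15376872), had 6.35, 5.72, 4.17 and 5.97 CPM in anti-CD115 replicates 1 to 4, against 4.12, 5.21, 4.09 and 4.58 CPM in control replicates 1 to 4. In 3 of 4 anti-CD115 libraries Dll1 exceeded all controls, and in replicate 3 it lay among them; the fitted change was 1.23-fold (95% interval 0.941 to 1.60; edgeR adjusted p = 0.601).

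The 2 target genes had the estimates closest to 0. Hes1 (ENSMUSG00000022528, chromosome 16, 30064384 to 30067796), which encodes a transcriptional repressor that holds back differentiation, had 13.3, 13.7, 11.7 and 11.4 CPM in anti-CD115 replicates 1 to 4. It had 12.4, 13.5, 11.7 and 10.9 CPM in control replicates 1 to 4, so the groups covered almost the same range (log2 change 0.04, SE 0.12, edgeR adjusted p = 0.929). Hey1 (ENSMUSG00000040289, chromosome 3, 8663359 to 8667256) had 25.2, 24.0, 23.5 and 24.9 CPM in anti-CD115 replicates 1 to 4, against 24.7, 25.5, 24.4 and 24.5 CPM in control replicates 1 to 4. Hey1 varied least of the 10 members, with a log2 change of -0.02, SE 0.08 (edgeR adjusted p = 0.950). The 95% intervals of the fold were 0.864 to 1.23 for Hes1 and 0.876 to 1.11 for Hey1. Whether the receptors and ligands changed more than the targets was not tested.

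**Figure D3:**
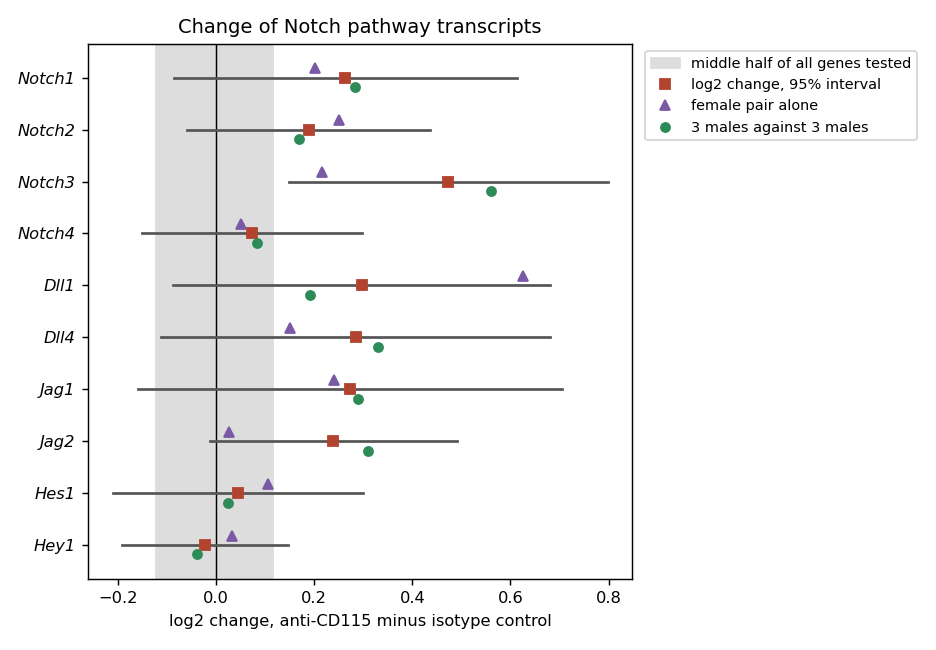
Log2 change, anti-CD115 minus isotype control (x axis), of each gene, with squares and lines for the edgeR estimate and its 95% interval, triangles for the female pair and circles for 3 males against 3 males; the grey band is the interquartile range of all 17723 genes tested. The Notch3 interval, 0.15 to 0.80, lies above 0, and those of the other 9 genes include 0.

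The receptors and ligands shared their low libraries. Control replicate 4, a male, was the lowest library for 6 of these 8 genes and among the 2 lowest for 7, and control replicate 3, also a male, was among the 2 lowest for 5. No anti-CD115 library was the lowest for any of the 8. Summed hormone transcripts were 293600 and 287400 CPM in control replicates 3 and 4, and 297400 CPM in anti-CD115 replicate 3. They were 240800 and 234600 CPM in control replicates 1 and 2, and 206400, 217200 and 220700 CPM in anti-CD115 replicates 1, 2 and 4. Anti-CD115 replicate 3 was lowest of its group for Notch1, Notch2, Notch3, Dll1 and Jag1, but not for Notch4, Dll4 or Jag2. The part of hormone transcripts in the Notch estimates was not tested. Without control replicate 4 the log2 change was 0.37 for Notch3, 0.16 for Notch1, 0.14 for Notch2 and 0.00855 for Notch4, and 0.31 for Dll1, 0.16 for Dll4, 0.12 for Jag1 and 0.15 for Jag2. None passed (edgeR, smallest adjusted p = 0.560, for Notch3). Control replicate 2, the highest library for Notch1 and Notch2, had the opposite weight. Without it the log2 change was 0.59 for Notch3, 0.46 for Notch1, 0.32 for Notch2 and 0.34 for Jag2, and again none passed (edgeR, smallest adjusted p = 0.157, for Notch3).

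The summed markers of 6 cell lists, endothelial, mural, stem and folliculostellate, pituicyte, fibroblast, and neuron and brain, were each lowest in control replicate 4, and no marker of these lists was at 0 in all libraries. The sums were weighted to abundant markers, such as Rgs5 among mural and Plvap among endothelial markers, and not every marker followed them. The mural Kcnj8 was highest in control replicate 4 (12.2 CPM), and the fibroblast Col1a2 was lowest in anti-CD115 replicate 1 (298 CPM). Of 12 endothelial markers 0 passed over all genes in edgeR (0 rose and 0 fell), all 12 had estimates above 0, and the median log2 change was 0.28, against 0.00406 over all genes. Groups did not overlap for 5 of the 12, all higher with anti-CD115, against 2.47% of all genes in that direction. Their summed level was 598, 655, 578 and 637 CPM in anti-CD115 replicates 1 to 4, against 533, 550, 570 and 384 CPM in control replicates 1 to 4. Of 9 mural markers 0 passed and 8 had estimates above 0, with a median of 0.45. The 2 largest estimates, for Myh11 (1.14) and Acta2 (1.04), rested much on anti-CD115 replicate 2. Myh11 was at 22.1 CPM there and at 3.14 to 5.01 CPM in the other anti-CD115 libraries, and Acta2 at 44.1 against 5.13 to 7.78 CPM. Groups did not overlap for 2 of the 9, both higher with anti-CD115. The mural sum was 267 to 405 CPM in anti-CD115 libraries and 204 to 310 CPM in controls, again lowest in control replicate 4. Of 10 stem and folliculostellate markers 0 passed and 9 had estimates above 0, with a median of 0.16. Groups did not overlap for 3 of the 10, all higher with anti-CD115. The sums of these markers were 327 to 360 CPM with anti-CD115 and 267 to 337 CPM in controls. The 6 pituicyte markers, which mark the posterior lobe, summed to 159 to 270 CPM in anti-CD115 libraries and to 81.4 to 260 CPM in controls, with control replicate 4 lowest. Of these 6, 0 passed and 4 had estimates above 0, with a median of 0.20. The 6 fibroblast markers had a median of -0.04 and sums of 683 to 940 CPM in anti-CD115 libraries and 671 to 1144 CPM in controls. The 6 neuron and brain markers had a median of 0.05 and sums of 499 to 680 CPM with anti-CD115 and 493 to 581 CPM in controls. Snap25 and Syt1 made up most of these sums, averaging 227 and 271 CPM with anti-CD115 and 214 and 236 CPM in controls. Rbfox3, Avp and Oxt averaged 13.1, 6.18 and 10.5 CPM with anti-CD115 and 12.8, 6.32 and 14.2 CPM in controls. The sums thus say little about the less abundant markers. For the fibroblast and the neuron and brain lists, control replicate 4 lay close to the next lowest library, at 671 against 683 CPM and at 493 against 499 CPM. Groups overlapped for every pituicyte, fibroblast, and neuron and brain marker. The part of these cell types in the Notch estimates was not tested.

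**Figure D4:**
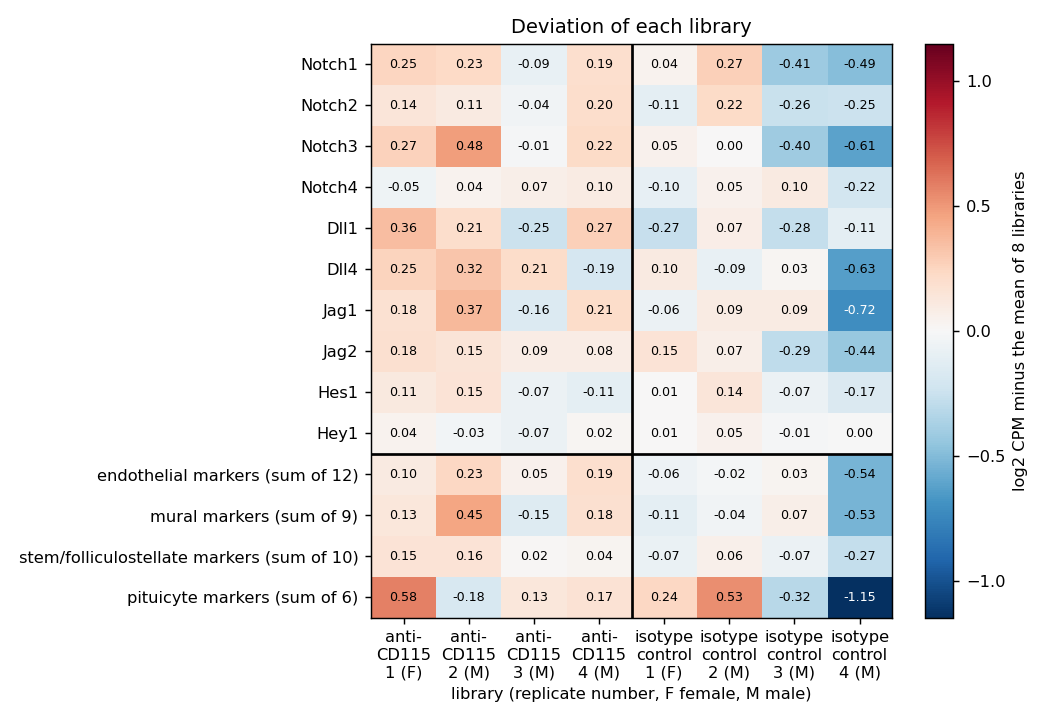
Deviation of each library (columns) from the mean of 8 libraries, in log2 CPM, for the 10 genes and for the summed endothelial, mural, stem and folliculostellate and pituicyte markers (rows); red is above and blue below the mean. Control replicate 4 is 0.61 below the mean for Notch3 (-0.61) and 0.54 below it for the endothelial sum (-0.54), while Hey1 stays within 0.07 of 0 in every library.

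Closeness of profile was measured as the root mean square difference of centred log2 CPM over the 8 libraries, among 124 genes of the pathway and cell lists with a mean of at least 1 CPM. Notch2 lay closest to Lgr4, a receptor for R-spondins, at 0.0328, against a median of 0.255 over the 124 genes, and then to Sox2, a stem cell factor, at 0.106. Notch1 and Jag2 both lay closest to Sox9, at 0.0878 and 0.0899, and next to Kdr, the endothelial VEGF receptor, at 0.105 and 0.108. Notch3 lay closest to Abcc9, a potassium channel subunit of pericytes, at 0.136, and then to Kdr at 0.137. Jag1 lay closest to the mural genes Rgs5 (0.0740) and Cspg4 (0.0988). Dll4 lay closest to Heyl (0.148) and the endothelial Esam (0.157), and Dll1 to Neurl1b (0.122) and Lgr4 (0.132). Profiles of Notch4, Hes1 and Hey1 varied little and lay closest to Furin (0.0765) and Eogt (0.0902), to Dtx1 (0.0669) and Kat2b (0.0788), and to Mib2 (0.0509) and Poglut1 (0.0599). The measure is not scaled to a gene's own spread: Hey1 had an SD of 0.037 in log2 CPM, below its difference from Mib2. The median over the 124 genes ran from 0.228 for Hes1 to 0.354 for Notch3. Whether close profiles reflect shared cells was not tested.

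The wider machinery of the pathway held no gene that passed. Of 56 further genes listed by role, 51 were tested, 0 rose and 0 fell in edgeR, DESeq2 or limma-voom, against 0.869% of all genes in edgeR. At an unadjusted p below 0.05 there were 3 higher, Numb, Dtx4 and Hey2, and 2 lower, Numbl and Dtx3, against 4.57% and 5.77% of all genes. The median log2 change was 0.05. Of the 51, groups did not overlap for 2 higher with anti-CD115, Poglut1 and Aph1b, and 1 lower, Aph1a. Over all genes tested, 5.78% had groups that did not overlap in either direction. Hes2, Hes3, Hes5, Hes7 and Dlk2 were below the count filter.

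Among ligand-like genes, Dlk1, a Delta-like protein of endocrine cells without the receptor-activating domain, had 2559 ± 493 CPM in anti-CD115 libraries and 2138 ± 527 CPM in controls (SD, n = 4 each; edgeR log2 change 0.27 with SE 0.12, adjusted p = 0.484). Dll3, a Delta-like protein that does not activate receptors on other cells, had 10.7 ± 2.56 CPM with anti-CD115 and 8.54 ± 0.634 CPM in controls (SD, n = 4 each; log2 0.33, edgeR adjusted p = 0.551). The ubiquitin ligases that draw ligands into the sending cell were represented by Mib1 (log2 0.12, SE 0.08) and Neurl1a (log2 0.10, SE 0.09). Of the sugar transferases that modify receptors, Poglut1 had a log2 change of 0.09 (SE 0.06) and groups that met at 68.9 CPM without overlapping, at 71.7 ± 1.99 CPM with anti-CD115 and 67.3 ± 1.45 CPM in controls (SD, n = 4 each). Eogt, a related enzyme, had a log2 change of 0.08 (SE 0.08).

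Of the 10 receptor-cleaving genes 3 had estimates above 0 and 7 below. The gamma-secretase subunits Aph1a and Aph1b, which can take the same place in the complex, differed in sign. Aph1b had 27.3 ± 1.73 CPM with anti-CD115 and 24.0 ± 1.49 CPM in controls (SD, n = 4 each; edgeR log2 change 0.19 with SE 0.09, adjusted p = 0.492). Aph1a had 27.7 ± 0.911 CPM with anti-CD115 and 29.7 ± 1.10 CPM in controls (SD, n = 4 each; edgeR log2 change -0.10 with SE 0.08, adjusted p = 0.687). Neither passed; the groups did not overlap for either gene, but the lowest anti-CD115 and highest control values of Aph1b were both 25.1 CPM, and the highest anti-CD115 and lowest control values of Aph1a both 28.7 CPM. Aph1b has a near copy, Aph1c, and how shared reads were counted is not given in the sources used here.

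In the nucleus, the acetyltransferases Ep300 (log2 0.15, SE 0.12) and Kat2a (log2 0.12, SE 0.09) had the smallest p of the activators, and the DNA-binding partner Rbpj had 35.6 CPM with anti-CD115 and 34.4 CPM in controls (log2 0.05, SE 0.08). The corepressor Spen, which binds RBPJ in the absence of Notch, had a log2 change of 0.26 (SE 0.13, edgeR adjusted p = 0.517), and the histone demethylase Kdm5a one of 0.17 (SE 0.13). Among further target genes, Hey2 had 16.0 ± 2.87 CPM with anti-CD115 and 13.0 ± 3.05 CPM in controls (SD, n = 4 each; edgeR log2 change 0.30 with SE 0.13, adjusted p = 0.470). Heyl had a log2 change of 0.18 (SE 0.13), and the feedback inhibitor Nrarp one of -0.10 (SE 0.20). Numb and its relative Numbl, adaptors that hold back the receptor, had log2 changes of 0.22 and -0.21 (SE 0.09 and 0.08; edgeR adjusted p = 0.426 and 0.397). Rbpj and Nrarp were chosen after their values were seen.

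Females and males were compared in the same fit. Of all genes 87 differed by sex (0.491%), and of the 10 Notch genes 0 did in edgeR, DESeq2 or limma-voom. At an unadjusted p below 0.05 there were also 0 of 10, against 9.09% of all genes. Jag2 had the smallest p, with 34.5 and 33.9 CPM in the anti-CD115 and control female, against 32.4, 33.8 and 32.3 CPM in anti-CD115 males and 32.0, 24.9 and 22.5 CPM in control males. Both females thus stood above all 6 males, by a small margin over the highest male (log2 female minus male 0.22, SE 0.13, 95% interval -0.07 to 0.50; edgeR adjusted p = 0.705). The groups hold 1 female each, so the fit takes the spread among females from the males. Females did not overlap males for 5.71% of all genes in that direction.

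The treatment difference was also set out within each sex. Between the females, the log2 difference, anti-CD115 minus control, was 0.62 for Dll1, 0.25 for Notch2, 0.24 for Jag1 and 0.22 for Notch3. It was smallest for Jag2 and Hey1, at 0.03 each, and rests on 1 female per group. From the mean of 3 males against 3 males it was 0.56 for Notch3, 0.33 for Dll4, 0.31 for Jag2, 0.19 for Dll1 and -0.04 for Hey1. A test of the sex by treatment term passed for 7 of all genes (0.0395%) and for 0 of the 10 Notch genes in edgeR, DESeq2 or limma-voom, with 0 of 10 also at an unadjusted p below 0.05, against 3.2% of all genes. Dll1 had the smallest p of the 10 for that term (log2 0.44, edgeR adjusted p = 1).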

How the data were processed

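Reads were handled by the authors with featureCounts 1.5.0-p3, StringTie 1.3.3b and HISAT2 2.0.5 on build GRCm38, per the submitters' processing notes; settings, including use of strand, are not given in the sources used here. The deposited table holds whole-number read counts per gene, without normalisation, and a second deposited table gives FPKM for the same genes. Per the labels' protocols, libraries came from 100 ng of total RNA with a stranded mRNA kit. In R 4.3.3, edgeR 4.0.16 (filterByExpr on treatment, TMM, quasi-likelihood F test) modelled the 8 libraries by sex and treatment, and p-values were adjusted by Benjamini and Hochberg over all genes tested, at 0.05. Standard errors come from the F statistic, and intervals are at 95%. CPM uses the TMM-scaled counts of tested genes. Alternatives used DESeq2 1.42.0, limma 3.58.1, other filters, FPKM and left-out libraries. Correlations of log2 CPM between replicates were 0.975 to 0.991, and no library was a duplicate of another. Every value of the 10 genes rested on 98 or more counts. Over all genes, replicates differed by more than counting error. The lowest chi-square per degree of freedom between libraries of a group was 14.6.

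The 10 genes and the gene lists were chosen with earlier results of these data known. All 10 were named. Of the wider list, the 2 genes with the smallest p in each role were named. Also named were genes with an unadjusted p below 0.05, those below the count filter and those closest in profile to a member. Aph1c, Rbpj, Nrarp and some single cell markers were named outside these rules. Promoter sequences are from RefSeq, build GRCm38.p6; Hes1 and Hey1 have no entry there.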

Additional observations from a re-analysis of the deposited data

How the results depend on the processing

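Of 190 refitted treatment changes of the 10 genes, 188 kept their direction and their side of the threshold. Notch3 passed with no low-count filter (log2 0.48, edgeR adjusted p = 0.00887), which made the count of changed Notch genes 1; the cause was not tested. Leaving out 1 library at a time gave -0.0106 to 0.112 for Hes1, below 0 only without anti-CD115 replicate 2, and 0.36 to 0.59 for Notch3 (adjusted p 0.157 to 0.692). The ranges were 0.164 to 0.458 for Notch1, 0.134 to 0.316 for Notch2, 0.00855 to 0.117 for Notch4, 0.19 to 0.422 for Dll1, 0.156 to 0.373 for Dll4, 0.115 to 0.37 for Jag1, 0.154 to 0.337 for Jag2 and -0.0391 to -0.00409 for Hey1, with none past the threshold. The count of all changed genes was 268 with DESeq2 (52 higher, 216 lower), 487 with no low-count filter (134 higher, 353 lower), 91 with log2(FPKM + 1), 86 with log2(FPKM + 0.1), 67 with log2(FPKM + 1) without a filter, and 89 to 120 with 1 library left out (89 without anti-CD115 replicate 4, 101 without replicate 2, of which 0 were higher). For sex it was 336 with DESeq2, 601 with no low-count filter, 33, 42 and 32 in the same FPKM fits, and 46 to 92 with 1 library left out (46 without control replicate 4, and 53, 50 and 51 without anti-CD115 replicates 1, 3 and 4). Of 170 refitted sex differences of the 10 genes 9 turned sign, all with 1 library left out, over ranges of -0.0353 to 0.0898 for Notch2, -0.166 to 0.267 for Dll1, -0.0589 to 0.103 for Jag1 and -0.00707 to 0.0638 for Hey1.

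The labels do not say that same-numbered libraries share a litter, batch or day, and both replicate 1 libraries are the females. Deviations of same-numbered libraries from the group means correlated at 0.396, -0.121, 0.0612 and 0.306 for replicates 1 to 4, over 15483 genes, and not every library correlated best with its own number, so the numbers were not taken as pairs. With a replicate block 118 genes and 0 Notch genes passed, and 3 Notch genes had an unadjusted p below 0.05 (Notch3 log2 0.48, adjusted p = 0.133).

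With 4 libraries a group, the 95% interval of the fold included 1 for 9 of the 10 genes, and its upper bound lay between 1.11 and 1.63 for these, so smaller rises could not be resolved.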
